A study of Mus musculus with 12 samples.

Results

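The genes described are 10 genes that mark the neurons of the spiral ganglion and their subtypes, taken by name from the 37432 genes of a deposited expression table. Nefl, Nefm, Nefh and Tubb3 stand for neurons in general, Calb1, Calb2, Pou4f1, Runx1 and Lypd1 for subtypes of type I neurons, and Prph for type II neurons. RNA was sequenced from the mouse cochlea at P14, cut into apical, middle and basal turns. There were 6 groups (2 genotypes by 3 turns) with 2 biological repeats each, 12 libraries in all. The homozygous mice carried Gjb2 35delG on both chromosomes (the sample labels call them KO), in place of wild-type Gjb2, which encodes connexin 26, a gap junction protein of non-sensory cells. These males came from embryonic stem cells put into tetraploid embryos, were taken from the uterus by surgery and were raised by ICR foster mothers. The wild-type males were bought at the same age, so genotype and origin cannot be told apart. How many mice or stem cell lines stand behind a library is not stated, so that p-values measure the spread between these libraries, which may in part be technical. The comparisons ask how genotype and turn bear on the RNA of the inner ear, read here for its afferent neurons.

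Spiral ganglion neurons carry the signal of hair cells to the brainstem. Type I neurons, the large majority, are myelinated and contact inner hair cells. They are divided by expression into subtypes Ia, rich in the calcium-binding protein calretinin (Calb2), Ib, marked by calbindin (Calb1), and Ic, marked by Lypd1 and by the transcription factor Pou4f1. The transcription factor Runx1 is active in Ib and Ic neurons. Type II neurons are thin, unmyelinated fibres to outer hair cells that hold peripherin (Prph), a filament protein. Nefl, Nefm and Nefh encode the light, medium and heavy subunits of the neurofilament, which fills axons, and Tubb3 a neuronal beta-tubulin. Some of these genes are not limited to neurons: calretinin is also made by inner hair cells, calbindin by hair cells, and Runx1 by blood cells.

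All 10 genes are annotated as protein-coding in the mm10 genome. Nefl lies at chr14:68083863-68089095 on the plus strand inside the span of Nefm at chr14:68082590-68124846 on the minus strand, and their exons share 1108 bases. Lypd1 shares 1202 exonic bases with Gpr39 and Runx1 106 with Gm26626, also on opposite strands. Whether the authors used strand when they counted is not stated, so that reads in these stretches cannot be assigned to a gene with certainty. To show a start region of each of the 3 classes, the RefSeq windows (GRCm38.p6) upstream of a general neuron gene, a type I subtype gene and the type II gene are given, 5′ to 3′, without bases inside an annotated exon. They are chr8:123411303-123411423 (plus strand) for Tubb3, chr14:104468000-104468249 (minus strand) for Pou4f1 and chr15:99054924-99055173 (plus strand) for Prph. Capitals mark TATAAA on the strand shown or its complement, and likewise CCAAT and, as GC box, GGGCGG.
Tubb3: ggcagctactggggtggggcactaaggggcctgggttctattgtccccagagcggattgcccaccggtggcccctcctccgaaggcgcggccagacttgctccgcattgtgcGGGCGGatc
Pou4f1: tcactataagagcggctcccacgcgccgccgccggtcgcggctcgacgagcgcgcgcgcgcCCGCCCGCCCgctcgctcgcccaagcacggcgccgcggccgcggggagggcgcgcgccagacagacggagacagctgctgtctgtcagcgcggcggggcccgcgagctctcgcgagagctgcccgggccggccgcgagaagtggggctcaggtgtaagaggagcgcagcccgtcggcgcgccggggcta
Prph: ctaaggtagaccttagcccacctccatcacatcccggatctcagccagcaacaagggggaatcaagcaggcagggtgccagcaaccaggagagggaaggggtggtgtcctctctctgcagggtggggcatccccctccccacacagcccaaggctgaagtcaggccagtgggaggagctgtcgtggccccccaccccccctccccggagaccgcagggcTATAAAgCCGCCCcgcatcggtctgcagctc
Only the Prph window holds TATAAA, a motif found in 12.4% of all 32851 RefSeq windows of 250 bases, and just after it stands a GC box (GGGCGG, 32.7% of windows) read on the minus strand. The Pou4f1 window holds 2 overlapping copies of GGGCGG and the Tubb3 stretch 1. CCAAT, found in 33.8% of windows, is in none of the 3 stretches printed. The Tubb3 stretch has only 121 bases, so the shares for windows of 250 bases do not apply to it. Its full window, with the bases inside an exon, holds 1 CCAAT and 2 copies of GGGCGG. A match is a description of the letters, not of a bound site.

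Levels are FPKM (fragments per kilobase of exon and of total mapped fragments), divided by a scaling factor per library of 0.917 to 1.06. Read depth is not known, which leaves counting error without an estimate, so the spread between the 2 repeats is the only measure of precision. Gjb2 itself was at 139.7 to 434.5 in the wild-type and 58.6 to 450.6 in the homozygous libraries, which overlapped, and a level per gene does not show the deleted base, so that it does not check the genotype. A single library stood apart for these genes. Wild-type basal repeat 1 had the lowest level of 9 of the 10 genes, all but Runx1, and Pou4f1 and Prph are listed at 0 there. Its Tubb3 level was 1.03, where the other wild-type basal library had 63.6. Homozygous middle repeat 2 was also low, with Tubb3 at 3.20 beside 28.1 in the other repeat. Results for the basal turn are therefore given with and without wild-type basal repeat 1. In bulk tissue, fewer neurons and less RNA per neuron cannot be told apart.

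The 4 general neuron genes followed the same course over the 12 libraries. Tubb3 was at 42.9 and 58.2 in the wild-type apical libraries, 116 and 117 in the wild-type middle, 1.03 and 63.6 in the wild-type basal, 9.85 and 28.6 in the homozygous apical, 28.1 and 3.20 in the homozygous middle and 178 and 260.4 in the homozygous basal. Homozygous values were below wild-type values in 2 turns, the apical and middle, and above them in the basal, without overlap. The light neurofilament subunit, Nefl, was at 115 and 167 in the wild-type apical libraries, 269 and 299 in the wild-type middle, 1.70 and 182 in the wild-type basal, 24.6 and 62.1 in the homozygous apical, 56.96 and 6.39 in the homozygous middle and 416 and 594 in the homozygous basal. Nefm, the medium subunit, was at 118 and 184 in the wild-type apical libraries, 279.7 and 259 in the wild-type middle, 2.27 and 187 in the wild-type basal, 34.5 and 49.1 in the homozygous apical, 59.0 and 7.80 in the homozygous middle and 599 and 619.9 in the homozygous basal. Nefh, the heavy subunit, was at 133 and 211 in the wild-type apical libraries, 309.5 and 311 in the wild-type middle, 0.596 and 141 in the wild-type basal, 33.5 and 52.6 in the homozygous apical, 69.2 and 7.32 in the homozygous middle and 647 and 498 in the homozygous basal. For all 4 genes the homozygous basal libraries were the highest of the series and the wild-type middle libraries came next, with no overlap between them. The wild-type apical libraries lay below the wild-type middle ones and above all homozygous apical and middle ones. The homozygous apical and middle libraries overlapped each other, and the wild-type basal pair overlapped every group except the wild-type middle and the homozygous basal. From lowest to highest library, the levels spanned 254-fold for Tubb3, 274-fold for Nefm, 350-fold for Nefl and 1086-fold for Nefh.

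**Figure D1:**
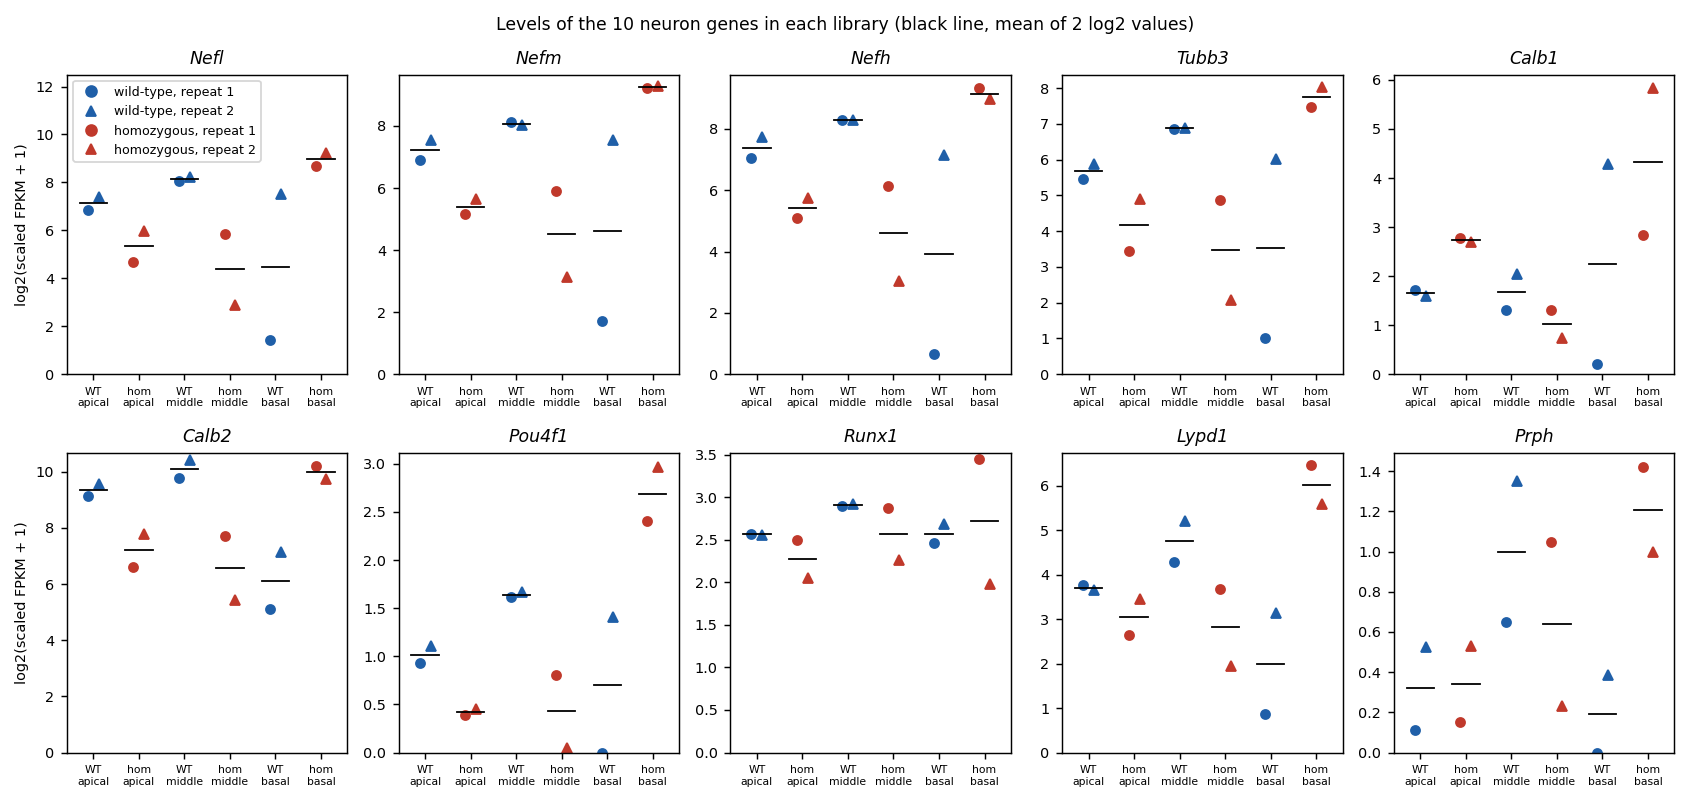
Level of each of the 10 genes in each of the 12 libraries, as log2(scaled FPKM + 1) on the vertical axis, with the 6 groups of genotype and turn on the horizontal axis (WT, wild-type; hom, homozygous). Circles are repeat 1, triangles repeat 2 and black lines the mean of both; the vertical scale differs between genes. The 4 general neuron genes, Calb2, Pou4f1 and Lypd1 share a shape in which the homozygous basal pair is high and wild-type basal repeat 1 is near 0 or lowest.

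Among the type I subtype genes, Calb2, the Ia marker, had the highest level of the 10 genes in all groups but the wild-type basal one by its means. It was at 555 and 759.5 in the wild-type apical libraries, 885 and 1358 in the wild-type middle, 33.6 and 139.8 in the wild-type basal, 96.8 and 219 in the homozygous apical, 210.0 and 41.7 in the homozygous middle and 1188 and 862 in the homozygous basal. Unlike the filament genes, Calb2 was as high in the wild-type middle libraries as in the homozygous basal ones, and these 4 values overlapped. Lypd1, the Ic marker, was at 12.6 and 11.6 in the wild-type apical libraries, 18.6 and 35.8 in the wild-type middle, 0.814 and 7.81 in the wild-type basal, 5.26 and 9.9996 in the homozygous apical, 11.9 and 2.84 in the homozygous middle and 87.2 and 47.3 in the homozygous basal. The Ic transcription factor gene Pou4f1 was near the filter, at 0.900 and 1.15 in the wild-type apical libraries, 2.06 and 2.18 in the wild-type middle, 0 and 1.65 in the wild-type basal, 0.315 and 0.365 in the homozygous apical, 0.752 and 0.0329 in the homozygous middle and 4.31 and 6.81 in the homozygous basal. Both Ic genes were below wild-type in the homozygous apical and middle libraries and above it in the homozygous basal ones, without overlap.

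Calb1 and Runx1 did not follow this course. Calb1, the Ib marker, was at 2.29 and 2.04 in the wild-type apical libraries, 1.49 and 3.10 in the wild-type middle, 0.158 and 18.6 in the wild-type basal, 5.81 and 5.46 in the homozygous apical, 1.47 and 0.661 in the homozygous middle and 6.12 and 55.8 in the homozygous basal. Its 2 high values came from wild-type basal repeat 2 and homozygous basal repeat 2, so in the basal turn the repeats differed more than the genotypes. In the apical turn Calb1 was the only gene of the 10 whose homozygous libraries were both above the wild-type ones. Runx1 was at 4.92 and 4.87 in the wild-type apical libraries, 6.47 and 6.55 in the wild-type middle, 4.48 and 5.43 in the wild-type basal, 4.66 and 3.14 in the homozygous apical, 6.31 and 3.79 in the homozygous middle and 9.90 and 2.95 in the homozygous basal. It spanned only 3.36-fold from lowest to highest library, both of which were homozygous basal libraries, and wild-type basal repeat 1 was close to the other libraries.

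Prph, the type II gene, was the lowest of the 10 in 8 libraries and shared the lowest place, at 0, with Pou4f1 in another. It was at 0.0815 and 0.440 in the wild-type apical libraries, 0.568 and 1.55 in the wild-type middle, 0 and 0.308 in the wild-type basal, 0.112 and 0.442 in the homozygous apical, 1.07 and 0.173 in the homozygous middle and 1.68 and 0.996 in the homozygous basal. Only 3 of these 12 values reached 1, and the pairs overlapped between genotypes in the apical and middle turns. All 10 genes passed the filter for testing (at least 1 FPKM in 2 libraries), Prph through 1 library each of the wild-type middle, homozygous middle and homozygous basal groups.

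Set in order within the wild-type middle turn, the mean scaled FPKM ran from Calb2 (1121 ± 335, SD, n = 2) over Nefh (310.2 ± 0.972), Nefl (284 ± 21.2), Nefm (269 ± 14.8) and Tubb3 (116 ± 0.840) to Lypd1 (27.2 ± 12.1) and Runx1 (6.51 ± 0.0603). Calb1 (2.29 ± 1.14), Pou4f1 (2.12 ± 0.0793) and Prph (1.06 ± 0.693) came last. Nefl and Nefm overlapped in this order, as did Calb1 with Pou4f1 and with Prph, while the other neighbours did not overlap.

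Genotypes were compared in each turn with limma on log2(scaled FPKM + 1), with p-values adjusted by Benjamini-Hochberg over all 16215 genes tested, and calls required an adjusted p below 0.01 with a difference of more than 2-fold. None of the 10 genes was called in the apical turn, where 0.179% of all genes tested were called. Their log2 fold changes, homozygous minus wild-type, were negative for 8 genes, and Calb2 had the lowest, -2.15 (SE 0.83, adjusted p = 0.248). Calb2 was also the only one of the 10 with an unadjusted p under 0.05, against 16.4% of all genes. For Tubb3 the log2 fold change was -1.51 (SE 1.42) and for Calb1 1.07 (SE 1.23). The repeats did not overlap between genotypes for 8 genes, which were lower, and for Calb1, which was higher, where 32.1% and 26.9% of all genes did so. On the FPKM as deposited Runx1 overlapped too.

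In the middle turn all 10 log2 fold changes were negative, and none was called by limma, beside 0.179% of all genes. The general neuron genes had the largest sizes along with Calb2: Nefl was at -3.78 (SE 1.66, adjusted p = 0.196) and Calb2 at -3.53 (SE 0.83, adjusted p = 0.0525). An unadjusted p under 0.05 was reached by 6 genes (Nefl, Nefm, Tubb3, Calb2, Pou4f1 and Lypd1), against 25.4% of all genes. All genes but Prph were lower in the homozygous pair without overlap, as were 28.2% of all genes; on the FPKM as deposited Calb1 and Runx1 overlapped as well. Without homozygous middle repeat 2 the log2 fold change of Nefl was -2.30 and with that library alone it was -5.27.

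In the basal turn all 10 log2 fold changes were positive. None was called by limma, beside 4.29% of all genes (2.53% called higher). An unadjusted p under 0.05 was reached by 8 genes, all but Calb1 and Runx1, against 32.4% of all genes. Lypd1 was closest to the threshold, at 4.03 (SE 0.78, adjusted p = 0.0116), followed by Calb2 at 3.86 (SE 0.83, adjusted p = 0.0161) and Pou4f1 at 1.98 (SE 0.44, adjusted p = 0.0173). The filament genes had larger sizes with larger errors, as Nefh at 5.24 (SE 1.73, adjusted p = 0.0684). The same 8 genes did not overlap between genotypes, where 26.2% of all genes were higher without overlap.

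These sizes rested on wild-type basal repeat 1. Without it the basal log2 fold change of Nefl was 1.44 in place of 4.49, that of Nefh 1.99 in place of 5.24 and that of Tubb3 1.74 in place of 4.24, and no gene of the 10 was called. Lypd1 kept 2.88 (adjusted p = 0.0509) and Calb2 2.84 (adjusted p = 0.0898) in that fit. In such a fit the single library left in the group is taken to vary like the other groups.

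**Figure D2:**
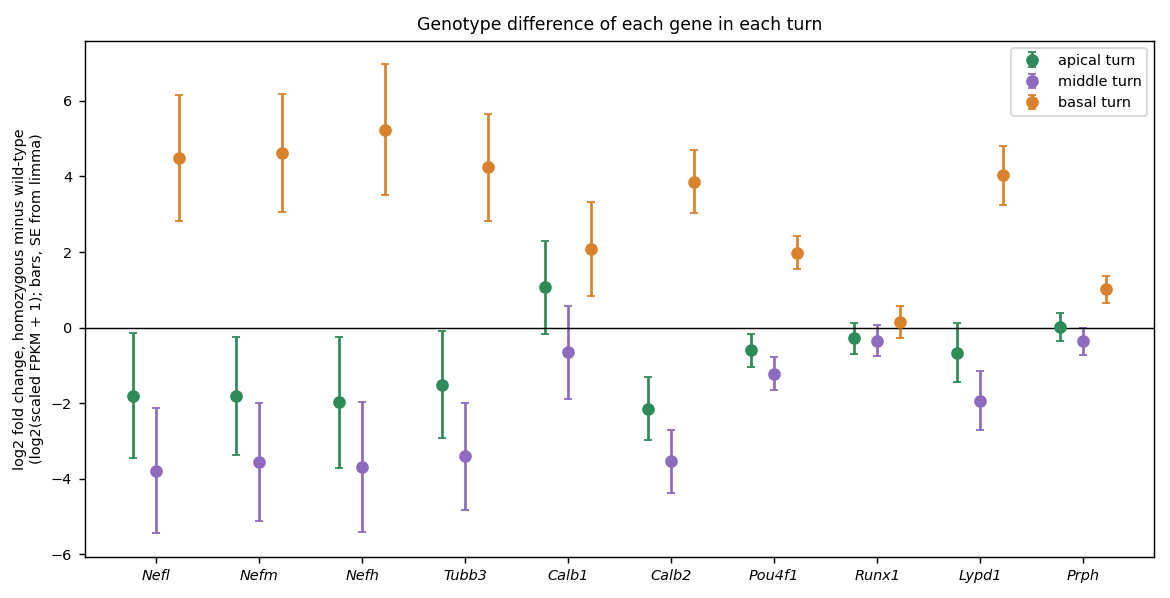
Difference between genotypes for each gene in each turn: the vertical axis gives the log2 fold change, homozygous minus wild-type, on the scale log2(scaled FPKM + 1), and bars are the standard error from limma. Apical and middle values of the general neuron genes, Calb2, Pou4f1 and Lypd1 lie below 0 and their basal values above it, from 1.98 for Pou4f1 to 5.24 for Nefh.

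Whether the genotype difference itself changed between turns was tested as the basal minus the middle difference. Of the 10 genes 3 were called, all type I subtype genes, beside 8.91% of all genes (6.33% called higher), and 8 had an unadjusted p under 0.05, beside 37.7%. Calb2 differed by 7.39 on the log2 scale (SE 1.18, adjusted p = 0.00425), Lypd1 by 5.96 (SE 1.11, adjusted p = 0.00692) and Pou4f1 by 3.20 (SE 0.62, adjusted p = 0.00815). The general neuron genes were not called with larger differences, from 7.65 for Tubb3 (SE 2.01, adjusted p = 0.0271) to 8.92 for Nefh (SE 2.45, adjusted p = 0.0316) and wider errors. Prph differed by 1.38 (SE 0.51, adjusted p = 0.0858), Calb1 by 2.74 (SE 1.75) and Runx1 by 0.49 (SE 0.59), none of them called. Without wild-type basal repeat 1, Calb2 (6.37, adjusted p = 0.00861) and Pou4f1 (2.48, adjusted p = 0.00953) were called and Lypd1 was not (4.81, adjusted p = 0.0114). The calls rested on few libraries: none of the 10 was called when either wild-type middle library, either homozygous basal library or homozygous middle repeat 2 was left out, nor when the apical libraries were left out of the fit, with Calb2 then at 7.40 (adjusted p = 0.0216). With a pseudocount of 0.1 in place of 1, Pou4f1 differed by 6.44 (adjusted p = 0.0301) and, like Lypd1, was not called. Basal minus apical gave no call by limma among the 10 (7 at an unadjusted p under 0.05), beside 0.796% of all genes called (28.4% at that unadjusted p), and Calb2 came closest at 6.01 (SE 1.18, adjusted p = 0.0174). Middle minus apical gave none by limma either (0% of all genes), and none at an unadjusted p under 0.05, where 8.05% of all genes stood. Averaged over the 3 turns, where the signs cancel, none was called by limma and none had an unadjusted p under 0.05, beside 0.376% and 18.6% of all genes, and Tubb3 was at -0.23 (SE 0.82).

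Between turns of the same genotype no gene of the 10 was called by limma. In wild-type mice all 10 had a higher mean in the middle than in the apical turn, from 0.01 for Calb1 to 1.20 for Tubb3 on the log2 scale, with none at an unadjusted p under 0.05 (19.9% of all genes, with 0.0863% called). The basal minus apical values of wild-type mice had Calb2 alone under that p, at -3.22 (adjusted p = 0.101), beside 20.3% of all genes (0.0863% called). From the middle to the basal turn of wild-type mice 9 of 10 log2 fold changes were negative, with Calb2 at -3.97 (SE 0.83, adjusted p = 0.116), and 4 had an unadjusted p under 0.05, beside 15.2% of all genes; no gene of the table was called there by limma. The apical and middle turns of homozygous mice gave none by limma and none at an unadjusted p under 0.05, beside 0% and 2.65% of all genes. From the middle to the basal turn of homozygous mice all 10 genes had a higher mean in the basal turn, the sign opposite to wild-type for all but Calb1, with 8 at an unadjusted p under 0.05 (34.6% of all genes; 4.66% called). Pou4f1 came closest to a call, at 2.26 from middle to basal (SE 0.44, adjusted p = 0.0109) and 2.27 from apical to basal (adjusted p = 0.0112). In the latter comparison 6 genes had an unadjusted p under 0.05, beside 32.9% of all genes (4.06% called).

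The neurofilament subunits stood in similar proportions over a wide range of sums. Summed as deposited, the 3 subunits reached 1658 and 1680.4 FPKM in the homozygous basal libraries, 799 and 796 in the wild-type middle ones, 22.7 in homozygous middle repeat 2 and 4.56 in wild-type basal repeat 1. Over the 11 libraries other than wild-type basal repeat 1, Nefl made up 25.0% to 37.9% of the sum, Nefm 29.8% to 37.3% and Nefh 27.7% to 39.0%. In wild-type basal repeat 1 the shares were 37.2% for Nefl, 49.7% for Nefm and 13.1% for Nefh, the lowest Nefh share of the series. FPKM are per length, and 1108 bases of the Nefl and Nefm exons coincide, so that these shares are approximate.

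To set the subtype genes against neurons in general, each gene was divided by Tubb3 in the same library. The ratio of Nefl to Tubb3 stayed within 1.65 and 2.87 over all 12 libraries, a 1.74-fold range, and that of Nefm within a 2.04-fold range. For Nefh the range was 6.26-fold, or 1.98-fold without wild-type basal repeat 1. The subtype genes varied more: Calb2 from 2.20 to 32.7 times Tubb3, Lypd1 over a 7.21-fold range, Calb1 over a 46.0-fold range and Runx1 over a 386-fold range. Without wild-type basal repeat 1 the range was 5.94-fold for Calb2, in place of 14.9-fold, and 104.5-fold for Runx1, and it was the same for Lypd1 and Calb1. Pou4f1, listed at 0 in wild-type basal repeat 1, spanned 3.11-fold over the other 11 libraries, the narrowest of the subtype genes, and Prph 28.5-fold.

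Homozygous and wild-type ratios were compared by an exact permutation test of genotypes within turns (two-sided, log2 ratio, mean of the 3 turns, n = 12), chosen after the data were seen. Pou4f1 and Prph had no such value over all libraries because of their 0. None of the other 7 ratios had a p under 0.05: the mean log2 difference of Nefl was -0.15 (exact p = 0.306), of Lypd1 0.74 (exact p = 0.185), of Calb1 1.38 (exact p = 0.167) and of Calb2 -0.46 (exact p = 0.574). Without wild-type basal repeat 1 (n = 11, 9 ratios), the mean difference of Nefl was -0.28 (exact p = 0.00926, the smallest this design allows), of Lypd1 1.19 (exact p = 0.0278), of Prph 1.54 (exact p = 0.0370) and of Pou4f1 -0.06 (exact p = 0.713). These p-values are not adjusted for the number of ratios, and the library left out was chosen after its values were seen. The test shuffled genotypes in each turn on its own and so took the turns as independent. Whether the turns of a repeat came from the same mice is not stated, and if they did, these p-values would be too small.

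In each turn the ratio of Nefl to Tubb3 in each homozygous library was below that in the wild-type libraries that remained: 2.5004 and 2.17 against 2.69 and 2.87 in the apical turn, 2.03 and 1.99 against 2.32 and 2.55 in the middle turn and 2.33 and 2.28 against 2.86 in the basal turn. For Lypd1 it was higher in each turn: 0.534 and 0.350 against 0.294 and 0.199 in the apical turn, 0.423 and 0.885 against 0.161 and 0.306 in the middle turn and 0.489 and 0.182 against 0.123 in the basal turn. Wild-type basal repeat 1 itself had a Lypd1 ratio of 0.793, above both homozygous basal libraries, and a Nefl ratio of 1.65, below them. The Prph ratio overlapped between genotypes in the basal turn (0.00940 and 0.00382 against 0.00484) and was higher in the homozygous libraries of the other turns, at 0.0379 and 0.0541 against 0.00491 and 0.0132 in the middle turn. The highest Lypd1 and Prph ratios, 0.885 and 0.0541, were both from homozygous middle repeat 2. As deposited, Tubb3 was at 3.38 FPKM there and Prph at 0.183. Whether a low Tubb3 level raised these ratios was not tested.

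A limma fit of every gene relative to Tubb3 called none of the 9 genes in any turn, beside 0% of all genes for apical and 0.0247% for middle libraries (none of the 9 had an unadjusted p under 0.05 in these). Every gene shares the spread of Tubb3 in this fit, and the standard errors of the 9 were 1.71 to 1.86. In the basal turn 0.475% of all genes were called and 84.5% had an unadjusted p under 0.05. Of the 9, Runx1 alone was among the latter, at -4.10 (SE 1.86, adjusted p = 0.0424). For the basal minus the middle genotype difference in this fit, Runx1 was called at -7.16 (SE 2.63, adjusted p = 0.00837), as were 80.9% of all genes, so that the call sets Runx1 apart from Tubb3 and not from genes at large. Prph was at -6.27 (SE 2.56, adjusted p = 0.0160), and it and Runx1 were the members with an unadjusted p under 0.05, beside 95.1% of all genes. Over the 12 fits that left out 1 library each, Runx1 ran from -9.55 (without wild-type basal repeat 2) to -4.78 (without wild-type basal repeat 1). Its call was lost in most of these fits. The share of all genes called also varied widely between them, so a call there says little about Runx1 itself. Nefl, Nefm, Nefh, Calb2 and Lypd1 lay between -1.69 and 1.27 in this comparison, each within 1 standard error of 0. Calb1 and Pou4f1 lay further below 0: before Tubb3 was taken out their differences were 2.74 and 3.20, beside 7.65 for Tubb3. The log2(scaled FPKM + 1) scale understates fold changes of low genes such as Pou4f1 and Prph.

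**Figure D3:**
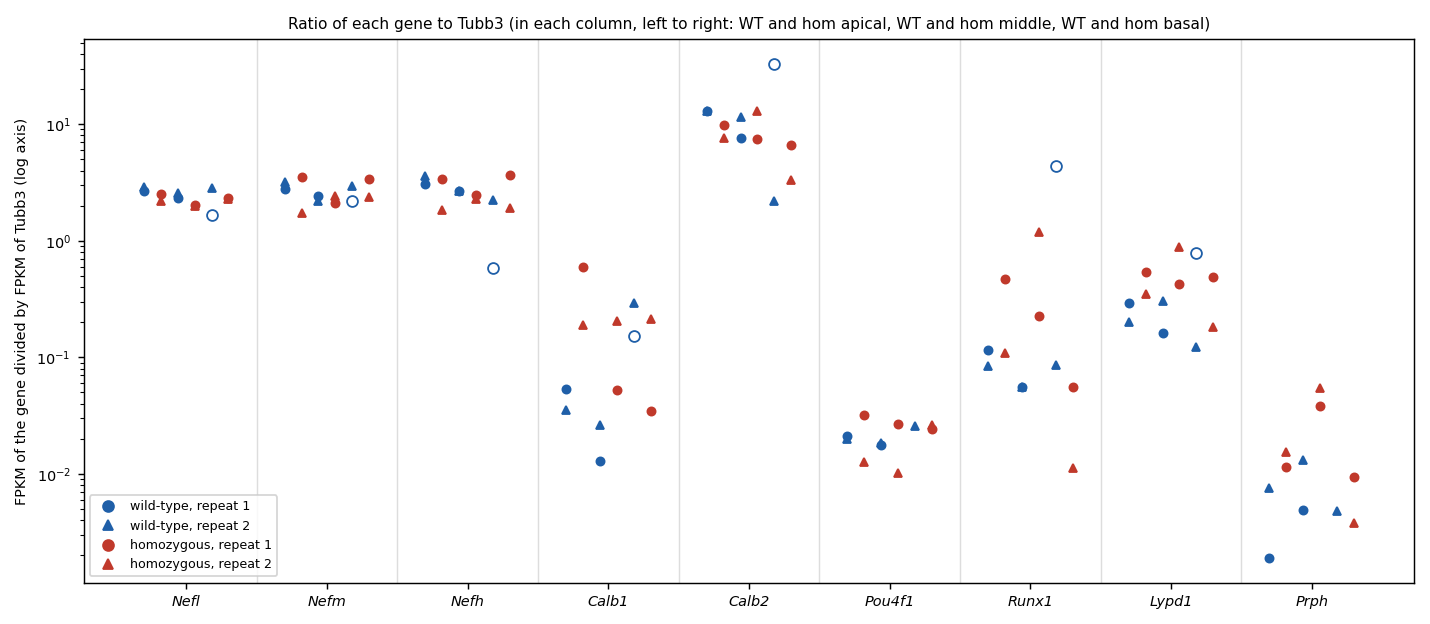
Ratio of the FPKM of 9 genes to that of Tubb3 in each library, on a log axis; within the column of each gene the positions run from left to right as wild-type and homozygous apical, wild-type and homozygous middle, wild-type and homozygous basal. Open circles are wild-type basal repeat 1, in which Pou4f1 and Prph were at 0 and are not drawn. Nefl stays within 1.65 and 2.87, whereas Calb1 and Runx1 spread over more than 1 step of 10.

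The gene outside the 10 whose log2 level followed that of each of 9 of them most closely over the 12 libraries was found by Pearson's r, as a description. It was Thy1 for Nefl (0.994), Cplx1 for Nefm (0.993), Sult4a1 for Tubb3 (0.996), Spock3 for Calb2 (0.996), Agtpbp1 for Pou4f1 (0.989) and Syt3 for Lypd1 (0.986). Thy1 encodes a surface protein of neurons and Cplx1 and Syt3 proteins of vesicle release. The closest genes to Prph (Nans, 0.936), Calb1 (Zmat4, 0.910) and Runx1 (Gm38079, 0.811) followed less closely. All 12 points include wild-type basal repeat 1, far below the rest for most of these genes, which raises r between genes that are low there.

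Other general neuron genes had differences of the same sign as the 4 filament and tubulin genes. None of 16 was called by limma in any turn (1 was lower in the apical, 11 lower in the middle and 14 higher in the basal turn at an unadjusted p under 0.05, where 16.4%, 25.4% and 32.4% of all genes stood in either direction), with median log2 fold changes of -1.05, -2.36 and 2.90 beside -0.03, 0.04 and -0.02 over all genes tested. For the 4 genes themselves the medians were -1.81, -3.62 and 4.55. In basal minus middle 7 of the 16 were called higher, beside 6.33% of all genes, among them the RNA-binding protein genes Elavl4 at 7.37 (SE 1.41, adjusted p = 0.0078) and Elavl3 at 6.25 (SE 1.26, adjusted p = 0.00952) and the dendrite protein gene Map2 at 4.53 (SE 0.72, adjusted p = 0.0042). Of 8 further spiral ganglion neuron genes 7 were tested, and 3 were called there: the glutamate transporter gene Slc17a6 at 5.03 (SE 0.98, adjusted p = 0.00853), the transcription factor gene Prox1 at 4.36 (SE 0.68, adjusted p = 0.00394) and the neurotrophin receptor gene Ntrk3 at 2.01 (SE 0.31, adjusted p = 0.00392). Ntrk3 was also called in the basal turn alone, at 1.32 (SE 0.22, adjusted p = 0.00805), 1 gene of the 7 tested beside 2.53% of all genes called higher.

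Of 5 other type I subtype genes 4 were tested. All 4 had negative log2 fold changes in the apical and middle turns, while in the basal turn 2 were positive and 2 negative. Their medians were -0.85, -0.72 and -0.26 in the apical, middle and basal turns, where the 5 described above had -0.59, -1.21 and 2.08. The glutamate receptor gene Grm8, 1 of the 4 tested, was called higher in the basal turn, at 1.90 (SE 0.26, adjusted p = 0.00526), beside 2.53% of all genes. Pcdh20 and Lrrc52 had -1.47 (SE 0.49, adjusted p = 0.07) and -1.65 (SE 0.48, adjusted p = 0.044) there. Both were present in wild-type basal repeat 1, which lacks nearly all Tubb3, at 22.4 for Pcdh20 and 5.71 for Lrrc52, and so were not low there as Tubb3 was. None of 4 other type II genes was called in any turn by limma (1 higher and 1 lower in the basal turn at an unadjusted p under 0.05). The highest of them, Gata3, a transcription factor gene also used by hair cells and supporting cells, was at -2.17 (SE 0.61, adjusted p = 0.0392) in the basal turn, and Etv4 at 0.37 (SE 0.31, adjusted p = 0.466). Of 8 other intermediate filament genes 1 was called higher in the basal turn, beside 2.53% of all genes. It was Synm, whose product synemin joins filaments in several cell types, at 1.88 (SE 0.34, adjusted p = 0.00921).

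Markers of other cells differed between the same libraries. The summed scaled FPKM of 10 Schwann cell markers, the glia that myelinate type I neurons, was 2768 and 2943 (wild-type) and 1739 and 2283 (homozygous) in the apical turn, 20248 and 6054 and 873 and 864 in the middle turn and 1621 and 5721 and 9548 and 15083 in the basal turn. Of these markers 3 were called higher in the basal turn, beside 2.53% of all genes, 1 lower in the middle turn, beside 0.0987%, and 6 higher in basal minus middle, beside 6.33%, where Cnp was at 5.09 (SE 0.69, adjusted p = 0.00291) and Prx at 4.70 (SE 0.36, adjusted p = 0.00113). For 7 markers of central glia, the glia of the nerve on its brainstem side, the sums were 16.0 and 15.8 (wild-type) and 18.4 and 23.7 (homozygous) in the apical turn, 1343 and 13.3 and 9.58 and 15.1 in the middle turn and 13.2 and 432 and 460.5 and 719 in the basal turn. They were high in 4 libraries (wild-type middle repeat 1, wild-type basal repeat 2 and both homozygous basal ones), where Mobp lay between 175 and 639.7 and Gfap between 122 and 366. Olig2 was at 0 in 5 of the other 8 libraries, and Mobp was at most 7.73 in those 8. None of the 7 was called by limma. In basal minus middle 3 were higher at an unadjusted p under 0.05, where 37.7% of all genes stood in either direction. Wild-type middle repeats 1 and 2, of which only the first was high in central glia markers, had Tubb3 at 116 and 117. The part of these glia, and of how much nerve a piece held, in the results for the neuron genes was not tested.

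**Figure D4:**
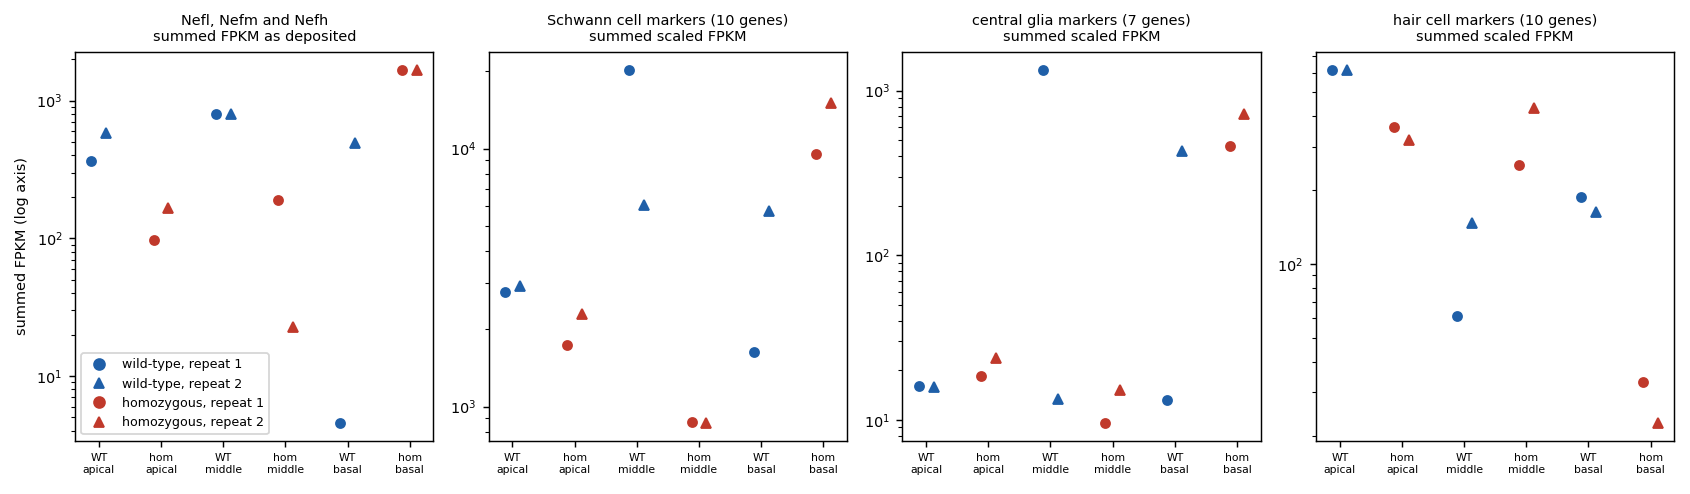
Summed FPKM of the 3 neurofilament genes (as deposited) and of 3 marker lists (scaled) in each library, on log axes whose range differs between panels; blue is wild-type, red homozygous, circles repeat 1 and triangles repeat 2. The homozygous basal pair is high in neurofilament, Schwann cell and central glia RNA and lowest in hair cell RNA, at 32.9 and 22.5.

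Hair cell markers were lower in the homozygous apical and basal libraries and mostly higher in the middle ones. The sums over 10 genes were 618 and 613 (wild-type) and 361 and 319 (homozygous) in the apical turn, 61.6 and 147 and 252 and 432 in the middle turn and 187 and 163 and 32.9 and 22.5 in the basal turn. In the apical turn all 10 log2 fold changes were negative, with a median of -0.98, and none was called by limma (7 at an unadjusted p under 0.05, beside 16.4% of all genes). In the middle turn the median was 0.59, and Slc26a5, the outer hair cell motor gene, was called higher at 2.93 (SE 0.34, adjusted p = 0.00889), 1 gene of 10 beside 0.179% of all genes. In the basal turn the median was -2.79, all 10 had an unadjusted p under 0.05, beside 32.4% of all genes, and 4 were called lower, beside 1.76%. In basal minus middle 6 were called lower, beside 2.58% of all genes, among them Ocm at -9.13 (SE 1.53, adjusted p = 0.00492), Cabp2 at -5.20 (SE 0.64, adjusted p = 0.00245) and Otof at -4.69 (SE 0.59, adjusted p = 0.0026). In the homozygous basal libraries Otof, the marker of inner hair cell synapses, was at 0.0982 and 0.109, while Calb2, which inner hair cells also make, was at 1188 and 862 there. In wild-type basal repeat 1 Otof was at 32.2 and Calb2 at 33.6, 32.7 times Tubb3, and Calb2 was the only gene of the 10 above 5 in that library.

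The remaining lists had no call by limma in any turn. Of 4 efferent neuron markers 2 matched a row and Calca alone was tested, with log2 fold changes of 2.19, 1.73 and 0.18 for apical, middle and basal. The first and second of these were at an unadjusted p under 0.05, beside 16.4% and 25.4% of all genes. Of 4 brainstem and cerebellum neuron markers only Cbln1 was tested, and their sum was at most 3.28 in any library. The medians of 7 macrophage and blood cell markers were 0.55, 1.02 and -0.72 in the apical, middle and basal turns, and those of 5 bone cell markers 1.92, 1.04 and -0.45. At an unadjusted p under 0.05, 1 macrophage and blood cell marker was higher in the apical turn and 1 bone cell marker in each of the apical and middle turns. Of all genes, 16.4% (apical) and 25.4% (middle) stood there in either direction. Wild-type basal repeat 2 and homozygous middle repeat 1 were highest for both lists, with bone sums of 2249 and 2142, and Tubb3 was also higher in each than in its own repeat. The part of this in the results was not tested.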

How the data were processed

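Total RNA was purified (miRNeasy Micro Kit), turned into libraries (VAHTS Universal V8) and read as 150 nt pairs by the authors. Per the paper and the submitters' processing notes they used fastp 0.20.0, STAR 2.7.3a on mm10 and StringTie 2.0, and deposited FPKM of each library in 1 table of 37432 genes. The annotation version is not given in the sources used here. FPKM keep no read depth here.

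For each library, a median-of-ratios factor was taken out of the deposited FPKM. On the log2(scaled FPKM + 1) scale, limma 3.58.1 in R 4.3.3 was fitted to the 16215 genes that reached 1 FPKM in 2 or more libraries, with 6 group means and a trend, two-sided, with Benjamini-Hochberg adjustment, which was tested on simulated data. Fold changes on this scale understate those of low genes. Ratios to Tubb3 used the deposited FPKM and an exact permutation test. Of the identifiers, 36831 match GENCODE M21, which gave coordinates and exons. RefSeq windows matched 5 of the 10 genes (Tubb3, Pou4f1, Runx1, Lypd1 and Prph).

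The members and lists were chosen with earlier results of these data known. Named were the 10 genes, the gene closest to each by correlation and, from each other list tested for neurons, glia or hair cells, at most 3 called genes of largest change or the 2 of highest mean. Of the genes this rule named, 2 are not reported here. Pcdh20, Lrrc52, Olig2 and further hair cell values were named after their values were seen. Alternatives were other pseudocounts, filters, scalings, thresholds and fits, a replicate block and leaving out each library.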

Additional observations from a re-analysis of the deposited data

Results flagged for a closer look

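The genotype difference of 3 genes changed between turns by a test of the difference itself. For the basal minus the middle turn it was 7.39 on the log2 scale for Calb2 (adjusted p = 0.00425), 5.96 for Lypd1 (adjusted p = 0.00692) and 3.20 for Pou4f1 (adjusted p = 0.00815), by limma with Benjamini-Hochberg adjustment over all genes tested, with n = 2 in each group. Each was lower in both homozygous than in both wild-type libraries of the middle turn and higher in both of the basal turn. The same test called 8.91% of all genes (6.33% higher). It called 7 of 16 other general neuron genes, 3 of 7 other spiral ganglion neuron genes and 6 of 10 Schwann cell markers higher, and 6 of 10 hair cell markers lower. Tubb3 was at 178 and 260.4 in the homozygous basal and 116 and 117 in the wild-type middle libraries. It was at 28.1 and 3.20 in the homozygous middle and 1.03 and 63.6 in the wild-type basal libraries. Hair cell marker sums in these groups were, in the same order, 32.9 and 22.5, 61.6 and 147, 252 and 432, and 187 and 163. Whether the middle and basal pieces were cut alike in both genotypes was not tested. The 4 general neuron genes had larger differences, from 7.65 for Tubb3 to 8.92 for Nefh, with wider errors and no call. Over the fits that left out 1 library each, the difference ran from 6.24 to 8.54 for Calb2, from 4.81 to 7.11 for Lypd1 and from 2.48 to 3.90 for Pou4f1, with adjusted p-values up to 0.0148, 0.0253 and 0.0278. With a pseudocount of 0.1 or 0.01 the difference of Pou4f1 was 6.44 (adjusted p = 0.0301) or 8.95 (adjusted p = 0.0589) and that of Lypd1 6.71 (adjusted p = 0.0115) or 6.81 (adjusted p = 0.0132), neither called, while Calb2 was called in both. With a replicate block Calb2 alone was called, and with no filter none of the 3 was. Relative to Tubb3, the difference of Runx1 was called at -7.16 (adjusted p = 0.00837) in a fit that called 80.9% of all genes, and it was not called without wild-type basal repeat 1 (-4.78, adjusted p = 0.0117).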

How the results depend on the processing

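Under every alternative, 0 genes were called in the apical turn and 0 in the middle turn. In the basal turn the count of 0 was 1 with quantile normalization and 3 at an adjusted p under 0.05, and 0 to 7 when 1 library was left out (7 without wild-type basal repeat 2). For the fit relative to Tubb3 in the basal turn it was 1 at an adjusted p under 0.05, and 0 to 3 when 1 library was left out (3 without wild-type basal repeat 2). The count of 3 for the basal minus middle difference was 1 with a pseudocount of 0.1 and 1 with 0.01, 0 with no filter, 0 with only the libraries of the turns compared and 7 at an adjusted p under 0.05, and 0 to 7 when 1 library was left out (7 without wild-type basal repeat 2). It was 0 without either wild-type middle library, either homozygous basal library or homozygous middle repeat 2, and 1 without any of the 4 apical libraries. With fewer libraries these fits have fewer residual degrees of freedom, and the single library left in a group is taken to vary like the other groups. The share of all genes called in the same fit is not given beside these counts and can change with the fit. The counts therefore describe how stable the calls were, and do not set these genes apart from genes at large.

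It is not stated whether equal repeat numbers mark pieces of the same mice. Deviations of same-numbered libraries correlated at -0.02 (apical with middle), 0.05 (apical with basal) and -0.29 (middle with basal) in wild-type mice. In homozygous mice these values were -0.41, 0.27 and -0.25. Between genotypes they were -0.07 (apical), -0.01 (middle) and 0.21 (basal), and over all groups they ran from -0.43 to 0.45. Such correlations cannot show whether libraries were paired. With a replicate block the basal minus middle count was 1, with Calb2 called and Lypd1 and Pou4f1 at adjusted p = 0.0127 and 0.0126, and the counts in the 3 turns were 0.

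Single genes turned sign in a few fits. With 1 library left out, the log2 fold change of Prph ran from -0.19 to 0.23 in the apical turn (-0.19 without wild-type apical repeat 1, -0.17 without homozygous apical repeat 2) and from -0.77 to 0.046 in the middle turn (0.046 without homozygous middle repeat 2), and that of Runx1 from -0.59 to 0.89 in the basal turn and from -0.24 to 1.24 for basal minus middle (lowest without homozygous basal repeat 1). The ratios to Tubb3 of Nefh (-0.11), Calb2 (0.19) and Runx1 (0.89) turned sign without wild-type basal repeat 1. The causes were not tested. Of the single-gene limma values, 905 kept their direction and side of the threshold, 48 lost a call and 20 gained one. Depth is unknown, so the counting error of a low value such as that of Prph cannot be estimated.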
